A study of Mus musculus with 6 samples.

Results

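The 10 genes followed here are those that sit on both sides of the contact between enterocytes and the T cells lodged among them. The epithelial side was the 4 butyrophilin-like genes Btnl1, Btnl2, Btnl4 and Btnl6, and the lymphocyte side was 6 markers of intraepithelial T cells, Cd3e, Cd8a, Itgae, Gzma, Gzmb and Cd160. They were chosen by symbol, as 10 of the 55450 gene identifiers in the count table, and all 10 passed the filter on low counts. Each library was made from polyA RNA of 1 adult mouse, from epithelium scraped off the small intestine. Whether it came from duodenum, jejunum or ileum is not stated. The 3 knockout mice (423, 476 and 477) were Vil1-Cre-ERT2+ Ncor1loxP/loxP and the 3 control mice (482, 483 and 486) Vil1-Cre-ERT2- Ncor1loxP/loxP. Mice of both groups also carried floxed alleles of a second corepressor gene. All received tamoxifen at 15 mg per 100 g body weight for 5 days from an age of 8 to 9 weeks. For every mouse of both groups, a metabolic cage day of 21 is also given. Vil1-Cre-ERT2 is a tamoxifen-activated Cre recombinase driven by the villin promoter, so the alleles were targeted in epithelial cells and not in lymphocytes. Only the knockout mice carried it, so deletion and transgene cannot be told apart.

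Intraepithelial lymphocytes (IELs) are T cells that live between the enterocytes of the villus, many of them with a gamma-delta receptor. In the mouse, Btnl1 pairs with Btnl6 at the enterocyte surface, and this pair selects and maintains the gamma-delta IELs that use the Vgamma7 segment. Btnl4 is a close relative that can also pair with Btnl1, and Btnl2 is a family member known to restrain T cell activation. Cd3e encodes a signalling chain of the T cell receptor, Cd8a the alpha chain of CD8, and Itgae the integrin chain CD103 that holds IELs to E-cadherin. Gzma and Gzmb encode granzymes, the serine proteases of cytotoxic granules, and Cd160 an activating receptor that binds HVEM.

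The 4 Btnl genes lie in 1 cluster beside the MHC class II genes, and their upstream sequences are shown because the genes did not all change alike. The 250 bases before each RefSeq transcription start (GRCm38.p6, the same assembly as mm10) are printed 5′ to 3′ on the gene's own strand. The annotation used for the gene coordinates given with the values places the Btnl4 start farther upstream than RefSeq does, so the Btnl4 window lies inside the gene in that annotation. For Btnl1 (chr17:34376882-34377131, plus strand) and Btnl2 (chr17:34354572-34354821, plus strand), capitals mark matches to the searched motifs described next. For Btnl4 (chr17:34475938-34476187, minus strand) and Btnl6 (chr17:34517353-34517602, minus strand), capitals mark the bases that differ between these 2 windows in a global alignment.
Btnl1: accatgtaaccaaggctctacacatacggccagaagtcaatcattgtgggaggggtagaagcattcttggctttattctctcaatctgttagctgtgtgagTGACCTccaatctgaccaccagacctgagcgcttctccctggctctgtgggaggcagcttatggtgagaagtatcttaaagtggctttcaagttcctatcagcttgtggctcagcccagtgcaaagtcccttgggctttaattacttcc
Btnl2: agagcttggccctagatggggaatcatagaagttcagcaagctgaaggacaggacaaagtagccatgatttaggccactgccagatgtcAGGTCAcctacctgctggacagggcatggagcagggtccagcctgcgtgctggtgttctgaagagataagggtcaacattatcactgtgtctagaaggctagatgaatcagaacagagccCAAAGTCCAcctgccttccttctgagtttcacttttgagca
Btnl4: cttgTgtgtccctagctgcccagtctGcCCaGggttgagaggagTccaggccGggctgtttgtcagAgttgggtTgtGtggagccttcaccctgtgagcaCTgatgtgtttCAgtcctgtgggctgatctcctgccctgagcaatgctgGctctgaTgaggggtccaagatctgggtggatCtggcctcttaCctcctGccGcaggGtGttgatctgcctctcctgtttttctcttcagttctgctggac
Btnl6: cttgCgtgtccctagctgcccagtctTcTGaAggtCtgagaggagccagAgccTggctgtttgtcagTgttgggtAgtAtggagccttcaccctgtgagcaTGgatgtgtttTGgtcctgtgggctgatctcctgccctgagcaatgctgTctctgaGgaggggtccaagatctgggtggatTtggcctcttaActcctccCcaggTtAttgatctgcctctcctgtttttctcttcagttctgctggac
The Btnl4 and Btnl6 windows were 90.5% identical over their alignment, with 20 mismatches and 4 gapped positions. Each of the other 5 pairs was between 46.7% and 50.4% identical. The 3 motifs were searched on both strands: the nuclear receptor half-site AGGTCA, the HNF4 site CAAAGTCCA and the CDX site TTTATG, and no 2 matches overlapped. AGGTCA occurred once in the Btnl1 window, as its reverse complement TGACCT, and once in the Btnl2 window, while 14.0% of 32851 promoter windows of the same length held it. CAAAGTCCA occurred once in the Btnl2 window, starting 41 bases before the start, and in 0.384% of all windows. TTTATG, which 10.8% of windows held, was in none of the 4, and the windows of Btnl4 and Btnl6 held none of the 3 motifs. Of the 10 genes, 9 had a window in the table, and the windows of the 5 lymphocyte genes with one held none of the 3 motifs.

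Total counts per library ran from 23476031 to 46835165, so that 3 counts corresponded to 0.0586 to 0.173 CPM. Ncor1, the floxed gene reported here, had 31.3, 36.4 and 22.5 CPM in knockouts 423, 476 and 477, against 140, 137 and 99.3 CPM in controls 482, 483 and 486. The epithelial origin of the libraries was visible in the keratin gene Krt8, at 2061 to 3255 CPM in knockout libraries and 2357 to 3322 CPM in control libraries. Other epithelial genes did differ between the genotypes. Epcam (log2 fold change -0.62) and Vil1 (-1.20) were lower in knockouts without overlap, and Krt18 (0.78) was higher without overlap. Krt19, Krt20, Cdh1 and Cdh17 overlapped, so Krt8 alone does not show equal epithelial content. Defining T cell genes were present in every library, with the summed CPM of Cd3d, Cd3e and Cd3g between 27.4 and 30.5 in knockout libraries and between 12.7 and 61.0 in control libraries. Control libraries 482 and 483 stood apart on the lymphocyte side: control 482 was the lowest control for 6 of the 6 IEL markers and control 483 the highest for 6 of 6. The B cell gene Ms4a1 stood at 1.05, 0 and 0.115 CPM in knockouts 423, 476 and 477, against 0.169, 11.7 and 0.234 CPM in controls 482, 483 and 486, so control 483 stood apart there as well.

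Among the Btnl genes, Btnl6 and Btnl2 fell in the knockout and Btnl1 and Btnl4 did not pass the test. Over all genes, 35.6% passed edgeR's quasi-likelihood test at an adjusted p under 0.05 (Benjamini-Hochberg), 18.3% as lower and 17.3% as higher. Of the 10 genes 2 were called, both lower, against 18.3% of all genes called lower and 35.6% called in either direction. Knockout and control libraries were fully apart, with the knockout lower, for 2 of the 10 genes, against 26.4% of all genes, and with the knockout higher for 1, against 23.9%; in either direction that is 3 of 10 genes, against 50.3% of all genes.

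Btnl6 (ENSMUSG00000092618, mm10 chromosome 17, 34507804 to 34517352, minus strand) measured 119, 171 and 178 CPM in knockouts 423, 476 and 477, against 295, 402 and 308 CPM in controls 482, 483 and 486. Every knockout library was below every control library. Its log2 fold change of -1.10 (SE 0.24; edgeR adjusted p = 0.0084, lower in 3 of 3 knockouts) ranged between -1.19 and -0.91 with each library left out in turn, with an adjusted p of 0.035 at most. Btnl2 (ENSMUSG00000024340, chromosome 17, 34354822 to 34369495, plus strand) measured 96.4, 122 and 136 CPM in the same knockouts, against 184, 210 and 155 CPM in the same controls. The groups did not overlap here either, though the distance from knockout 477 to control 486 was small. Its log2 fold change of -0.63 (SE 0.22) passed only just, with an edgeR adjusted p of 0.0496. That call was lost without control 482 or 483 or any 1 knockout library (adjusted p up to 0.17) and kept without control 486 (adjusted p = 0.029). It was also lost with median-of-ratios or upper-quartile scaling, with either other filter on low counts, and with the 20 most abundant genes left out (adjusted p of 0.051 to 0.068).

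Btnl1 (ENSMUSG00000062638, chromosome 17, 34377132 to 34386028, plus strand), the partner of Btnl6, had 271, 310 and 341 CPM in the knockouts and 316, 417 and 351 CPM in the controls. Knockout 477 lay above control 482, so the groups overlapped, and the log2 fold change of -0.23 did not pass (SE 0.22, edgeR adjusted p = 0.43). Btnl4 (ENSMUSG00000058435, chromosome 17, 34466562 to 34477318, minus strand) had 53.0, 75.0 and 61.9 CPM in the knockouts and 90.5, 110 and 66.4 CPM in the controls. Its groups overlapped through knockout 476 and control 486, with a log2 fold change of -0.49 (SE 0.24, edgeR adjusted p = 0.13), and it passed without control 486 (adjusted p = 0.040). With library-size scaling alone, which shifts the median log2 fold change of all genes by -0.44, Btnl1 and Btnl4 passed as well, at log2 fold changes of -0.68 and -0.94.

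**Figure D1:**
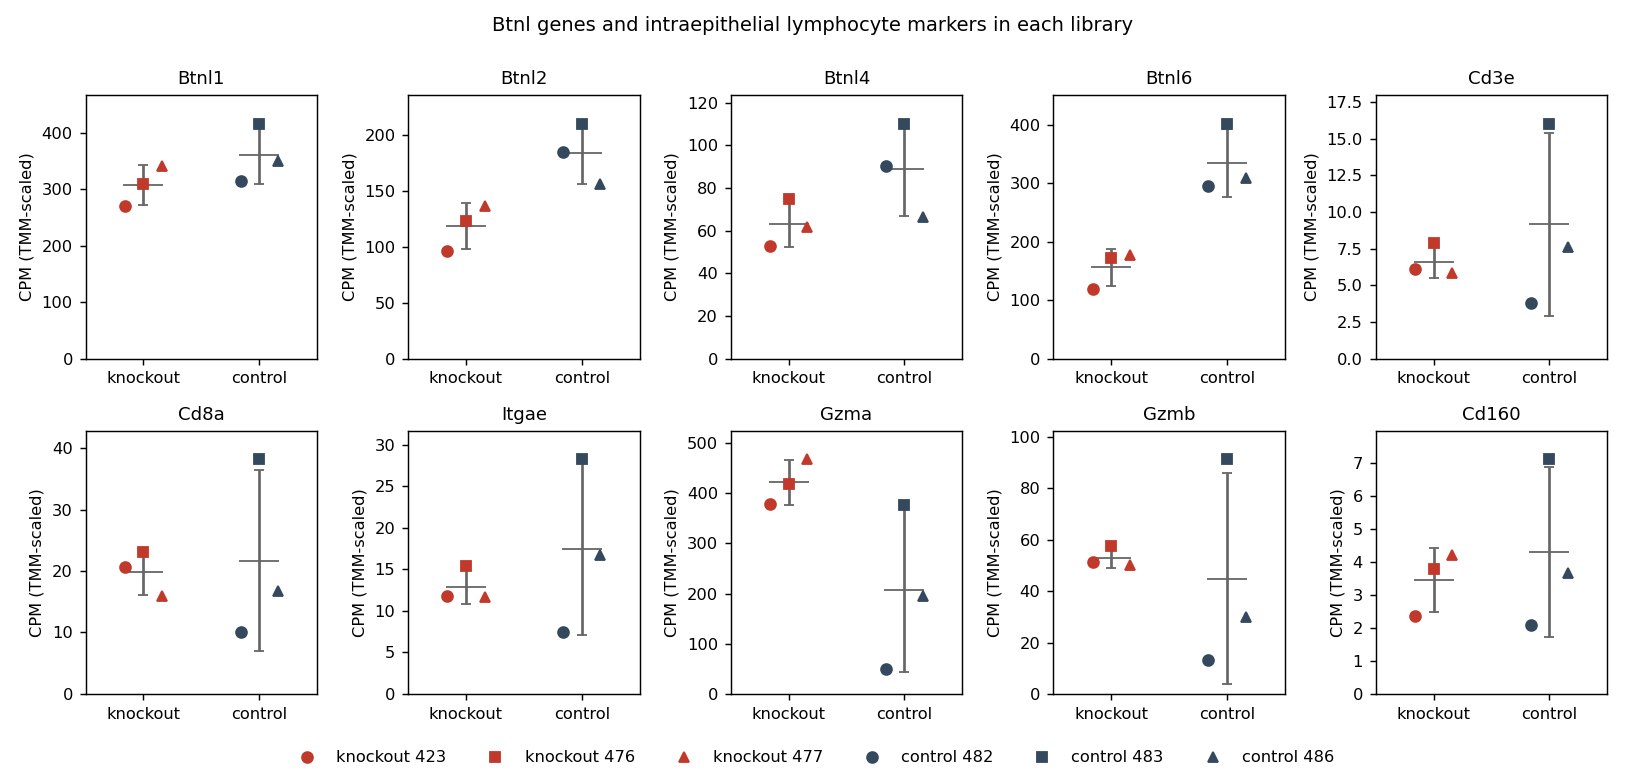
TMM-scaled CPM (y axis, from 0) of each of the 10 genes in the 3 knockout and 3 control libraries; symbols mark the libraries, horizontal bars the group mean and vertical bars the SD (n = 3). The groups are apart for Btnl2 and Btnl6, lower in knockouts, and by a small step for Gzma, higher in knockouts, and the control libraries of every IEL marker spread from a low control 482 to a high control 483.

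Because Btnl1 and Btnl6 proteins act as a pair, their RNA was also compared within each library, which does not depend on how libraries are scaled; this ratio was chosen after the values were seen. Btnl6 per Btnl1 was 0.440, 0.553 and 0.521 in knockouts 423, 476 and 477, against 0.934, 0.965 and 0.880 in controls 482, 483 and 486. The knockout mean of 0.505 ± 0.0581 was 0.543 times the control mean of 0.926 ± 0.0433 (SD, n = 3 each; fold from mean log2 ratios), and no library of one group reached the other. A two-sided exact permutation test gave p = 0.1, the smallest that 3 against 3 allows. Btnl2 per Btnl1 was 0.356 to 0.399 in knockouts and 0.444 to 0.584 in controls, also without overlap (exact permutation p = 0.1). Btnl4 per Btnl1 overlapped, at 0.181 to 0.242 in knockouts and 0.189 to 0.287 in controls (exact permutation p = 0.3).

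Set per kilobase of exon, so that genes can be compared with each other, the order of the mean levels differed between genotypes. In knockouts Btnl1 averaged 95.3 and Btnl6 89.2 CPM per kb, neighbours whose library ranges overlapped, followed by Btnl2 at 45.8 and Btnl4 at 26.6 CPM per kb. In knockout 476 alone Btnl6 stood above Btnl1, at 97.94 against 96.15 CPM per kb. In controls Btnl6 led with 192 CPM per kb, before Btnl1 at 112, Btnl2 at 70.8 and Btnl4 at 37.4 CPM per kb, with no overlap between neighbours in that order.

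The Btnl genes were also set beside 4 other epithelial genes, Epcam, Krt8, Krt18 and Vil1, whose summed CPM was 5439 ± 956 in knockouts and 7550 ± 315 in controls (SD, n = 3 each). Per this sum, Btnl6 was at 0.0274 to 0.0294 in knockouts and 0.0390 to 0.0539 in controls, 0.650 times as high without overlap (exact permutation p = 0.1). Btnl1, Btnl2 and Btnl4 overlapped on that scale, at 1.20, 0.904 and 1.01 times the control level (exact permutation p of 0.3, 0.4 and 1.0). The sum is not a constant reference, since Vil1, whose promoter drives the Cre, fell (log2 fold change -1.20, SE 0.28, edgeR adjusted p = 0.011). Epcam was lower (-0.62, SE 0.24, edgeR adjusted p = 0.070) and Krt18 higher in knockouts (0.78, SE 0.28, edgeR adjusted p = 0.054). Neither passed, but both were without overlap between the genotypes. Of the summed genes only Krt8 overlapped (-0.03, SE 0.27).

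Pseudogenes in the cluster fell as well. From Btnl2 to Btnl7-ps (chromosome 17, 34354822 to 34547651) the annotation holds 12 genes, of which 8 were tested. Of these, the scarce pseudogene Gm15331 fell (log2 fold change -1.76, SE 0.46, edgeR adjusted p = 0.016). The gene BC051142, at 0.0575 to 0.434 CPM, did not pass (-0.07, SE 0.62, edgeR adjusted p = 0.94). The pseudogene Btnl5-ps measured 85.4, 147 and 126 CPM in knockouts against 240, 298 and 213 CPM in controls, a log2 fold change of -1.07 (SE 0.26, edgeR adjusted p = 0.012). The pseudogene Btnl7-ps measured 27.7, 48.9 and 38.9 CPM in knockouts and 88.1, 118 and 63.5 CPM in controls, a log2 fold change of -1.22 (SE 0.28, edgeR adjusted p = 0.011). Both fell without overlap between the genotypes. Reads may be shared among these relatives where their sequences are the same. Of all 50-base windows in annotated transcripts, 6.58% of Btnl6, 13.8% of Btnl4, 14.6% of Btnl5-ps and 11.2% of Btnl7-ps windows recurred in another of 6 Btnl genes of the cluster, and none of Btnl1 or Btnl2. At 100 bases the shares were 0.0605%, 3.16%, 2.7% and 1.08%. Read length and the treatment of multi-mapping reads are not stated. Of the wider butyrophilin family list, which does not hold Btnl5-ps, 5 of 11 genes were tested. Of these 3 fell (Btnl2, Btnl6 and Btnl7-ps) and none rose, where 18.3% of all genes were called lower. The count was 2 with median-of-ratios or upper-quartile scaling and 5 with library size alone. Btn2a2, Btnl10 and Mog had no count in any library.

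**Figure D2:**
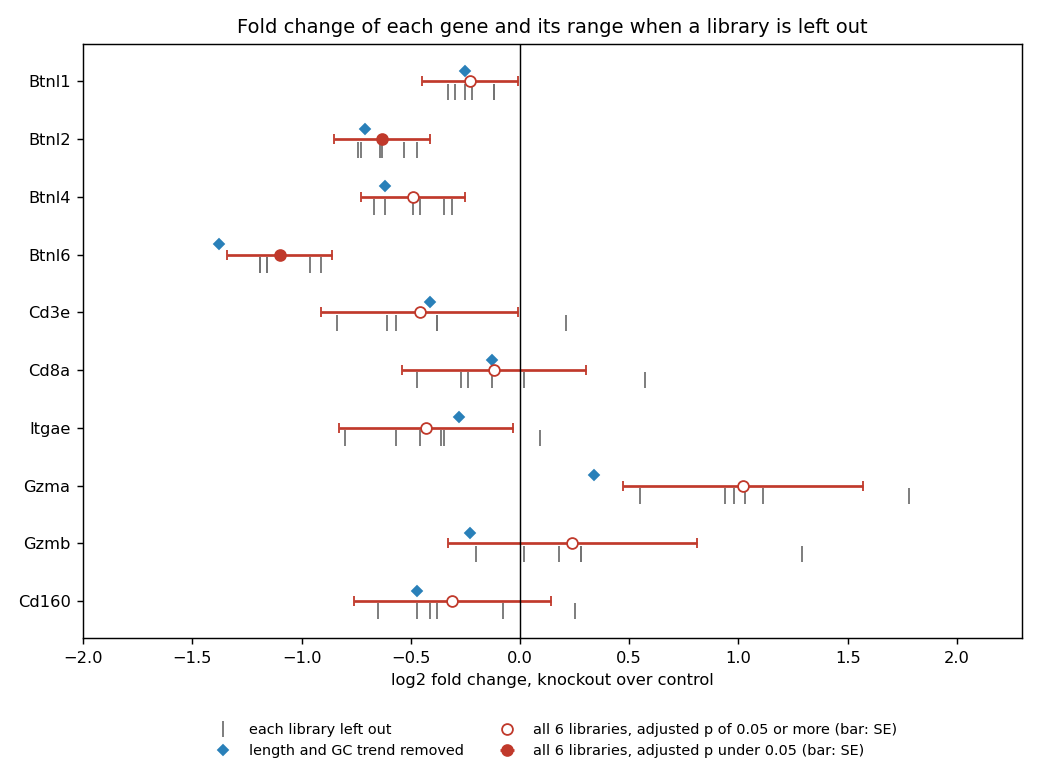
Log2 fold change of knockout over control (x axis) for the 10 genes, with the SE of the fit to all 6 libraries, the 6 values with a library left out, and the value after each library's trend with exon length and GC content was removed. Btnl6 stays between -1.38 and -0.91 in all of them, while Cd3e, Cd8a, Itgae, Gzmb and Cd160 have values on both sides of 0.

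On the lymphocyte side no marker passed the test: of the 6 IEL markers 0 were called by edgeR, 0 by DESeq2 and 0 by limma-voom, and 0 had an unadjusted p under 0.05. Over all genes edgeR called 35.6%, or 5348 genes, while DESeq2 called 5982 genes and limma-voom 5300. These markers come from a mixture of cells, and fewer IELs and less RNA per IEL cannot be told apart in such libraries. The control libraries differed among themselves by 3.41-fold (Cd160) to 7.63-fold (Gzma) from lowest to highest, the knockout libraries by 1.15-fold (Gzmb) to 1.79-fold (Cd160). The missing calls therefore leave wide intervals and do not show that the levels were alike.

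Cd3e (ENSMUSG00000032093, chromosome 9, 44998740 to 45009627) had 6.08, 7.88 and 5.87 CPM in knockouts 423, 476 and 477 and 3.79, 16.0 and 7.64 CPM in controls 482, 483 and 486. All 3 knockout values fell inside the control range (log2 fold change -0.46, SE 0.45, edgeR adjusted p = 0.44). Cd8a (ENSMUSG00000053977, chromosome 6, 71373427 to 71379173) had 20.6, 23.2 and 15.9 CPM in the knockouts and 10.01, 38.3 and 16.7 CPM in the controls, again inside the control range (-0.12, SE 0.42, edgeR adjusted p = 0.84). Itgae (ENSMUSG00000005947, chromosome 11, 73090583 to 73147446) had 11.8, 15.4 and 11.6 CPM in the knockouts and 7.42, 28.3 and 16.8 CPM in the controls (-0.43, SE 0.40, edgeR adjusted p = 0.43). Cd160 (ENSMUSG00000038304, chromosome 3, 96798763 to 96829351) was the scarcest of the markers, with 2.35, 3.79 and 4.20 CPM in the knockouts and 2.09, 7.13 and 3.67 CPM in the controls. Its log2 fold change was -0.31 (SE 0.45, edgeR adjusted p = 0.61), and like the other 3 it changed sign when control 483 was left out.

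The granzymes sat on the other side of 0. Gzma (ENSMUSG00000023132, chromosome 13, 113093825 to 113100981) had 378, 418 and 468 CPM in knockouts 423, 476 and 477 and 49.5, 377 and 196 CPM in controls 482, 483 and 486. The groups were apart only by the small step from control 483 to knockout 423, and the log2 fold change of 1.02 (SE 0.55) did not pass (edgeR adjusted p = 0.17). Gzmb (ENSMUSG00000015437, chromosome 14, 56258838 to 56262260) had 51.5, 57.4 and 50.04 CPM in the knockouts and 13.2, 91.4 and 30.1 CPM in the controls. The knockout values lay inside the control range (log2 fold change 0.24, SE 0.57, edgeR adjusted p = 0.76). Both depended on single control libraries. Without control 483, the library with the most CD3 RNA, Gzma and Gzmb passed, at log2 fold changes of 1.78 and 1.29 (edgeR adjusted p of 0.028 and 0.023). Without control 482, the library with the least, Gzma was at 0.55 and Gzmb at -0.20 (edgeR adjusted p of 0.23 and 0.74). With each library's trend with exon length and GC content removed, Gzma was at 0.34 (edgeR adjusted p = 0.69) and Gzmb at -0.23 (0.82), and with no filter on low counts Gzma passed (1.0, edgeR adjusted p = 0.0026). Per kilobase of exon Gzma had the highest mean of the 10 genes in both groups, at 419 CPM per kb in knockouts and 206 in controls. Cd160 had the lowest, at 1.31 and 1.63 CPM per kb. Single libraries departed from this order. In control 482 Gzma, at 49.2 CPM per kb, stood below Btnl6 (168), Btnl1 (97.9) and Btnl2 (71.3). In knockout 477 Cd3e (1.44) stood below Cd160 (1.59).

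The granzymes were also set against T cell RNA of the same library, and there the genotypes did not overlap for either of them. Gzma per summed Cd3d, Cd3e and Cd3g was 13.8, 13.7 and 17.1 in knockouts 423, 476 and 477 and 3.89, 6.19 and 5.96 in controls 482, 483 and 486. Knockouts averaged 14.9 ± 1.94 and controls 5.34 ± 1.27 (SD, n = 3 each), a fold of 2.83 from mean log2 ratios, with no overlap and an exact permutation p of 0.1, the smallest possible. Gzmb per CD3 RNA was 1.88, 1.88 and 1.83 in the knockouts and 1.04, 1.5 and 0.916 in the controls, a fold of 1.66 (exact permutation p = 0.1). Gzma is a short gene (1006 exon bases), and short genes stood higher in the knockout across the table, with a Spearman rho of -0.375 between exon length and log2 fold change over all genes tested. After that trend was removed with the trend in GC content, Gzma per CD3 RNA differed by 0.94 on the log2 scale, against 1.5 before, still without overlap, whereas Gzmb per CD3 RNA differed by 0.41 and overlapped. Cd8a, Itgae and Cd160 per CD3 RNA overlapped, at 1.10, 0.874 and 0.914 times the control ratio (exact permutation p of 0.7, 0.2 and 0.8).

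**Figure D3:**
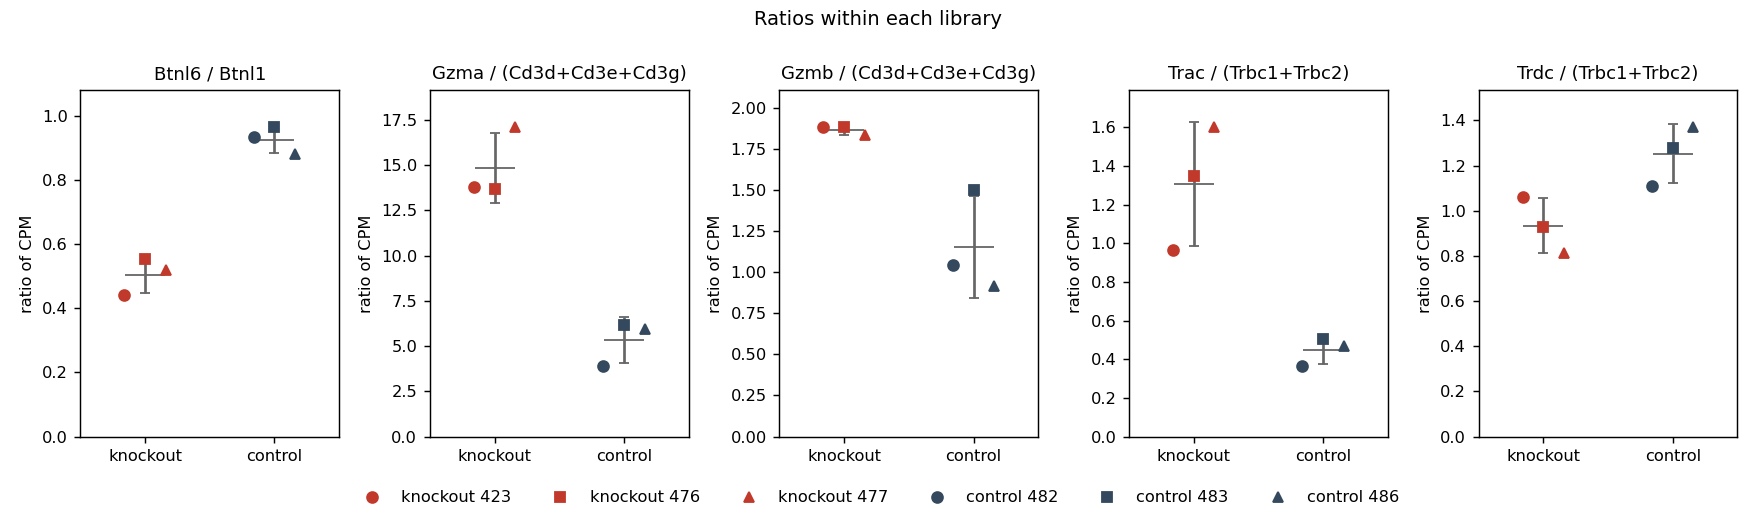
Ratios of CPM within each library (y axes, from 0) for Btnl6 over Btnl1, Gzma and Gzmb over summed CD3 genes, and Trac and Trdc over summed Trbc1 and Trbc2, with symbols for libraries and bars for group mean and SD (n = 3). Knockout and control libraries do not overlap in any of the 5 panels, with Btnl6 and Trdc ratios lower and the other ratios higher in knockouts. Ratios that overlapped between genotypes are not drawn, and the Btnl6, Trac and Trdc ratios were chosen after the values were seen. With the length and GC trend removed, the Gzmb and Trdc ratios overlapped.

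Summed over the 4 genes, Btnl RNA was 540, 679 and 717 CPM in knockouts 423, 476 and 477, against 886, 1140 and 881 CPM in controls 482, 483 and 486. The CD3 sum in the same libraries was 27.4, 30.5 and 27.4 CPM in the knockouts and 12.7, 61.0 and 32.8 CPM in the controls. Controls 482 and 486 thus had nearly equal Btnl RNA with CD3 RNA that differed more than 2-fold, while control 483 was highest in both. All 3 knockouts had less Btnl RNA than any control, with CD3 RNA between that of controls 482 and 486. With 3 libraries in each of 2 separate clusters no correlation across libraries was computed.

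**Figure D4:**
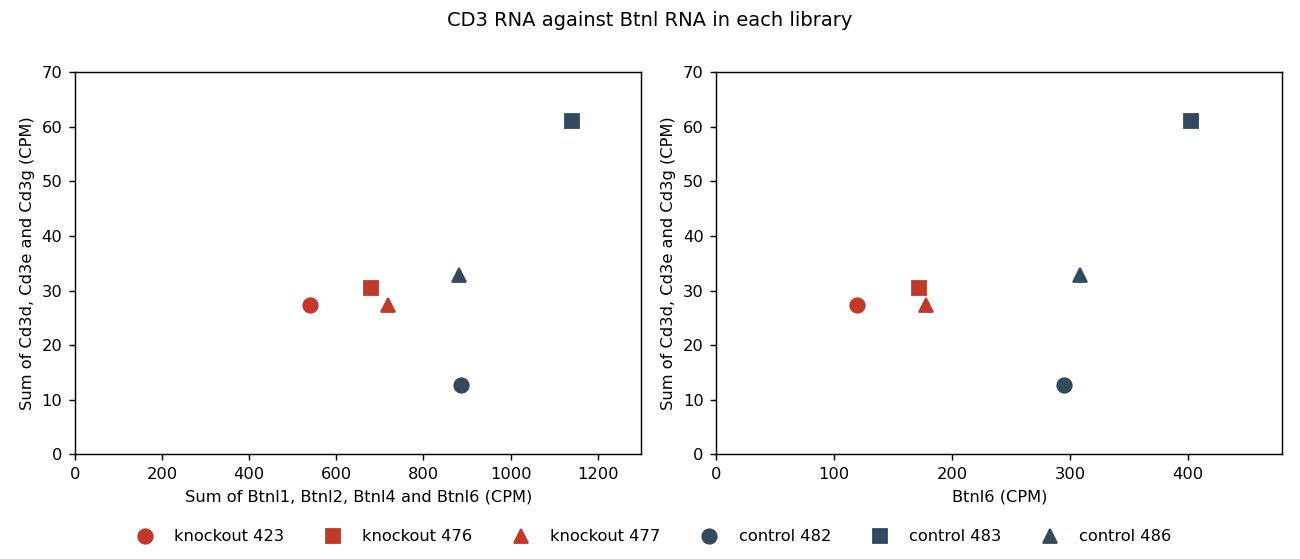
Summed CPM of Cd3d, Cd3e and Cd3g (y axis) against summed CPM of the 4 Btnl genes (left) and CPM of Btnl6 (right), 1 point per library. The knockouts lie left of all controls at CD3 values of 27.4 to 30.5 CPM, inside the control range of 12.7 to 61.0 CPM.

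Of 12 T cell receptor and CD3 genes, edgeR called 0, with 1 at an unadjusted p under 0.05, where it called 35.6% of all genes. DESeq2 and limma-voom each called 1, Trac, as higher. Over all genes they called 2918 and 2647 genes higher, and edgeR called 2596, or 17.3%. The median log2 fold change of the list was -0.29, against -0.06 for all genes tested. Trac, the constant gene of the receptor alpha chain, had 6.98, 11.4 and 10.9 CPM in the knockouts and 1.48, 7.09 and 3.38 CPM in the controls (log2 fold change 1.30, SE 0.49, edgeR adjusted p = 0.062), with knockout 423 just below control 483. Trdc, the constant gene of the delta chain, had 7.71, 7.84 and 5.52 CPM in the knockouts and 4.49, 18.1 and 9.90 CPM in the controls (-0.61, SE 0.43, edgeR adjusted p = 0.29). The 2 chain genes thus had fold changes of opposite sign, neither past the test.

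Relative to the beta chain constants Trbc1 and Trbc2 in the same library, ratios chosen after the values were seen, Trac was at 0.965, 1.35 and 1.6 in the knockouts and 0.365, 0.504 and 0.469 in the controls. That is a fold of 2.89 without overlap (exact permutation p = 0.1). Trdc on the same scale was at 1.06, 0.929 and 0.814 in the knockouts and 1.11, 1.28 and 1.37 in the controls, 0.744 times as high without overlap (exact permutation p = 0.1). The 4 gamma chain constants together were at 3.23, 2.7 and 2.81 in the knockouts and 2.64, 3.16 and 3.11 in the controls and overlapped (exact permutation p = 1.0). Without the length and GC trend, the Trdc difference changed sign to a log2 difference of 0.35, with overlap, and that of Trac was 1.61. Dad1, which lies 11272 bases beyond Trac on chromosome 14 in the opposite orientation, rose (log2 fold change 0.75, SE 0.22, edgeR adjusted p = 0.028), and its part in the Trac counts was not tested. The call of Dad1 was lost without control 482, control 483 or knockout 477 (adjusted p of 0.093 to 0.11), and Trac passed without control 483 (log2 fold change 2.0, edgeR adjusted p = 0.0089). Trgv7 (annotated as Tcrg-V7), the segment of the Btnl-dependent IELs, had 5.28, 2.76 and 2.99 CPM in the knockouts and 1.05, 4.73 and 2.83 CPM in the controls (log2 fold change 0.37, SE 0.51, edgeR adjusted p = 0.59).

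Of 10 tested T cell signalling genes 2 fell and none rose, a share close to the 18.3% of all genes called lower. Ptprc, the general leukocyte gene CD45, had 8.14, 9.57 and 6.79 CPM in the knockouts and 24.1, 41.0 and 19.7 CPM in the controls (log2 fold change -1.78, SE 0.30, edgeR adjusted p = 0.0024). Ptprc is also known from tuft cells of the mouse small intestine, and Pou2f3, which specifies tuft cells, had 0.0362, 0 and 0 CPM in the knockouts and 10.2, 2.702 and 2.54 CPM in the controls; its part in the Ptprc difference was not tested. Thy1, a surface glycoprotein of T cells, fell as well (-1.76, SE 0.57, edgeR adjusted p = 0.038). The call of Thy1 was lost without control 483 (0.14), without control 486 (0.056) and without each knockout library (0.068 to 0.12), and with limma-voom (0.077).

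Of 9 cytotoxic effector genes tested, edgeR, DESeq2 and limma-voom called 0, and 0 had an unadjusted p under 0.05; of 3 coreceptor genes the counts were the same, though 1 passed as lower without control 482, knockout 423 or knockout 476. Of 18 adhesion and surface receptor genes of IELs 1 rose and 1 fell, where 35.6% of all genes were called; DESeq2 called 1 higher and 2 lower. Jaml, a junctional adhesion molecule of gamma-delta T cells and neutrophils, had 42.0, 22.2 and 19.9 CPM in the knockouts and 9.34, 11.1 and 9.41 CPM in the controls (log2 fold change 1.49, SE 0.30, edgeR adjusted p = 0.0051). Ahr, the aryl hydrocarbon receptor that IELs need and that epithelium also expresses, had 3.51, 3.46 and 4.72 CPM in the knockouts and 17.3, 12.9 and 12.6 CPM in the controls (-1.88, SE 0.25, edgeR adjusted p = 0.00084). Itgb7, the beta partner of the Itgae chain, stood at 3.22, 3.42 and 2.19 CPM in the knockouts and 2.64, 12.1 and 5.37 CPM in the controls (log2 fold change -1.17, SE 0.50, edgeR adjusted p = 0.093). It passed as lower without control 482 (-1.56, edgeR adjusted p = 0.020), with library size alone, with no filter and with DESeq2, and was at -0.44 without control 483.

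Among epithelial partners of IELs, 4 of 11 tested genes fell and none rose, where 18.3% of all genes were called lower. The count was 2 with median-of-ratios or upper-quartile scaling and 7 with library size alone. H2-T3 encodes the TL antigen, the class Ib molecule that binds CD8 alpha homodimers, and had 51.3, 52.4 and 63.6 CPM in the knockouts and 194, 280 and 224 CPM in the controls. Its log2 fold change was -2.06 (SE 0.23, edgeR adjusted p = 0.00028), with every knockout library below every control library. Il15ra, which presents interleukin 15 to IELs, had 3.44, 3.42 and 2.88 CPM in the knockouts and 8.03, 8.21 and 6.15 CPM in the controls (-1.20, SE 0.26, edgeR adjusted p = 0.0082). Cd1d1 (-1.94, edgeR adjusted p = 0.048) and Il7 (-1.32, edgeR adjusted p = 0.0498) passed only just, on fewer than 2 CPM in every library, and of the fits with 1 library left out Il7 kept its call only in that without knockout 476. Il7 also lost it with median-of-ratios or upper-quartile scaling, with either other filter, with the 20 most abundant genes left out and with the length and GC trend removed (edgeR adjusted p of 0.051 to 0.063). The call of Cd1d1 was lost without control 483 (edgeR adjusted p = 0.23) or any 1 knockout library, and kept without control 482 or 486; it was also lost with median-of-ratios and upper-quartile scaling, DESeq2 and limma-voom (adjusted p of 0.051 to 0.11). Of 7 enterocyte transcription factors 1 fell, Gata5 (-1.0, SE 0.24, edgeR adjusted p = 0.012; 0.051 without knockout 477); Hnf4a stood at 458 to 673 CPM in knockouts and 586 to 730 CPM in controls. Of 8 structural epithelial genes 1, Vil1, fell.

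Markers of other cells that scraped epithelium can hold differed as follows. The counts stand beside 18.3% of all genes called lower and 17.3% called higher. The mast cell proteases Mcpt1 (log2 fold change -5.71, SE 0.77, edgeR adjusted p = 0.00085) and Mcpt2 (-3.44, SE 0.57) fell, and with Kit (-2.17) they were the 3 mast cell genes tested of 7. The summed CPM of the mast cell list was 1.73 to 1.99 in knockouts and 10.4 to 23.2 in controls. Of 4 B and plasma cell genes tested, edgeR called 0 with 0 at an unadjusted p under 0.05, while DESeq2 called Pou2af1 as lower and limma-voom called 0. The list summed to 4.89 to 108 CPM in knockouts and 54.6 to 312 CPM in controls. Most of this sum was Jchain in every library. Jchain was highest in control 486 (309 CPM, against 150 CPM in control 483), whereas Ms4a1 was highest in control 483. Of 8 myeloid genes 2 rose and 2 fell (1 or 2 were called in all without control 482, control 483 or knockout 477), and the list summed to 25.1 to 28.1 CPM in knockouts and 18.8 to 50.7 CPM in controls. Of 3 NK cell and innate lymphoid genes tested 1 rose and 1 fell; at most 1 of the calls held with any 1 library left out. Of the lamina propria CD4 T cell list only Cd4 was tested by edgeR, which called 0 genes with 0 at an unadjusted p under 0.05, as did limma-voom; DESeq2, with its own filter, called Icos as lower; the list summed to 0.173 to 1.48 CPM in knockouts and 0.885 to 3.34 CPM in controls. All 5 erythrocyte genes rose, with sums of 35.5 to 543 CPM in knockouts and 7.95 to 22.2 CPM in controls, but 0 were called without control 482 or 483 and 1 without control 486. The part of these cells in the marker levels was not tested.

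Genes whose profile over the 6 libraries was most like that of a member were ranked by the root mean square distance of centred log2 CPM among 9838 genes averaging 2 CPM or more. Closest to Btnl1 were Irf9 (0.032), Akirin2 (0.034), Hbp1 (0.041), Tlnrd1 (0.059) and P2ry1 (0.062). Closest to Cd3e were Selplg (0.095), Trbc2 (0.11), Gimap6 (0.118), Ctsw (0.119) and Fxyd5 (0.121), several of them lymphocyte genes. For Btnl6, added after the values were seen, they were Fzd7 (0.058), Fbxo33 (0.097), Lpar5 (0.099), E2f3 (0.099) and Rhbdl2 (0.105). None of them lies in the Btnl cluster, but of its tested genes only Btnl5-ps and Btnl7-ps could enter the ranking.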

How the data were processed

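RNA was sequenced from 3 knockout and 3 control mice, with replicates taken as separate animals by the numbers in the labels. Per the submitters' processing notes, reads were handled with fastp 0.21.0, STAR 2.7.9a and featureCounts (Subread 1.6.2) on mm10; the counting annotation and strand setting are not stated, so overlapping antisense genes cannot be told apart, and reads may be split among near-identical relatives such as granzymes and class Ib genes. The authors deposited raw counts per gene. These counts were tested with edgeR 4.0.16 (R 4.3.3): filterByExpr, TMM scaling, a robust quasi-likelihood fit of genotype and Benjamini-Hochberg adjustment over all 15028 genes tested, at a threshold of 0.05. SEs are the absolute log2 fold change over the square root of F. CPM values are TMM-scaled; CPM per kb uses the union exon length of GENCODE M21. The fit was also run on simulated counts with 200 changed genes, far fewer than the 5348 called here. That run therefore does not show how the fit performs at the share of changed genes in these data. Alternatives were other scalings and filters, limma-voom (limma 3.58.1), DESeq2 1.42.0, removal of each library's trend with exon length and GC content, other denominators and leaving out each library. The length and GC correction of ratios, the Lck denominator, the ratios per Btnl1 and the T cell receptor ratios were added after the data were seen. Counting floors (3 counts) cover counting error only. The members and gene lists were chosen with earlier results of these data known. Named genes were the members, at most 4 genes of a list with the smallest adjusted p, and the 5 genes closest in profile to Btnl1 and to Cd3e; others named, such as Dad1, Pou2f3, Trdc, Trgv7, Itgb7 and Ms4a1, were chosen after their values were seen. The second targeted gene is not reported here.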

Additional observations from a re-analysis of the deposited data

How the results depend on the processing

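Btnl6, H2-T3, Il15ra, Ahr, Jaml, Ptprc, Btnl5-ps and Btnl7-ps kept direction and call under all alternatives run. With library size alone, 1133 genes were called higher and 4554 lower, Btnl1 (-0.68) and Btnl4 (-0.94) passed, Gzmb turned to -0.16, and the calls were 5 in the butyrophilin family, 7 among epithelial partners, 3 among transcription factors, 4 among structural genes and 2 among myeloid genes. Btnl2 lost its call with median-of-ratios (-0.60) and upper-quartile scaling (-0.58), no filter (-0.67), a filter of 10 counts in 3 libraries (-0.63) and the 20 most abundant genes left out (-0.62). Cd8a was 0.13 with limma-voom, Gzma passed with no filter (1.00), and with the length and GC trend removed Gzma was 0.34, Gzmb -0.23 and Trgv7 -0.68.

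With no filter, 6280 genes were called in all, against 5348 in the main fit. List genes too scarce for the main fit were then tested too, such as 3 of the 7 B and plasma cell genes. The calls were 1 among receptor, coreceptor and cytotoxic genes each, 2 among structural and CD4 T cell genes each and 6 among B cell genes. With limma-voom, which called 5300 genes in all, they were 1 among receptor, signalling, NK cell and erythrocyte genes each and 2 among structural genes. With DESeq2, which called 5982, they were 1 among receptor, CD4, B and NK cell genes each and 3 among structural genes. With median-of-ratios or upper-quartile scaling they were 2 among partners and structural genes each, and with the 20 most abundant genes left out 2 among structural genes. With the trend removed, where 4695 genes were called in all, they were 2 among transcription factors, 1 among NK cell genes and 3 among erythrocyte genes.

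As log2 differences, Ptprc as denominator gave Cd8a 1.81, Itgae 1.49, Gzma 3.18, Gzmb 2.41 and Cd160 1.55, and Lck gave 0.66, 0.33, 2.03, 1.26 and 0.40 in that order. Cdh1 as denominator gave Btnl1 -0.11, Btnl2 -0.51, Btnl4 -0.35 and Btnl6 -0.99. With the trend removed, the ratios to CD3 RNA were 0.10 for Itgae, 0.94 for Gzma and 0.41 for Gzmb, Btnl6 was -0.90 per epithelial RNA and -1.14 per Btnl1, and Trdc per Trbc1 and Trbc2 was 0.35. The cause of these shifts was not tested.

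With each library left out in turn, genes called ranged from 3299 to 5940, higher calls from 1510 to 2958 and lower calls from 1748 to 2982. Log2 fold changes ranged from -0.74 to -0.47 for Btnl2, -0.67 to -0.31 for Btnl4, -0.84 to 0.21 for Cd3e, -0.47 to 0.57 for Cd8a, -0.80 to 0.09 for Itgae, 0.55 to 1.78 for Gzma, -0.20 to 1.29 for Gzmb, -0.65 to 0.25 for Cd160 and -0.04 to 0.91 for Trgv7. Calls ranged from 0 to 1 for receptor, coreceptor, transcription factor, CD4, B and NK cell genes each, 1 to 3 for signalling, 0 to 2 for cytotoxic, 2 to 3 for partner, 1 to 2 for structural, 1 to 4 for myeloid and 0 to 5 for erythrocyte genes. No paired analysis was possible because the groups share no animal numbers. With 3 libraries a group, the SEs of the IEL markers were 0.40 to 0.57 on the log2 scale, which limits how small a change could be called.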
